A study of Mus musculus with 46 samples.

Results

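Leukaemia inhibitory factor (LIF) keeps mouse embryonic stem cells self-renewing. LIF binds its receptor LIFR, which pairs with the shared subunit gp130 (Il6st), and the kinase JAK1 on these receptors phosphorylates the transcription factor STAT3. STAT3 then switches on its own brake, SOCS3, and genes such as the kinase Pim1, whereas oncostatin M signals into the same cascade through OSMR paired with gp130. The 9 genes described here are the ligand Lif, the receptors Lifr, Il6st and Osmr, the kinase Jak1, Stat3, the inhibitors Socs3 and Socs2, and Pim1. They were chosen by symbol, and all 9 were found among the 37108 genes of the gene-level table.

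RNA-seq was done on mouse embryonic fibroblasts (MEF, from mid-gestation embryos sired by OG2 mice, which carry an Oct4-GFP reporter) that received retroviral Oct4 with either native Nanog (NanogWT) or Nanog fused to the BRG1-interacting domain of SS18 (NanogBiD, labelled NanogN70), which belongs to the BAF complex that remodels chromatin. Both combinations were taken on 8 days from D0 to D12 (every day named below) with 2 replicates each, except NanogBiD at D8 with 1, which gave 31 libraries. D0 was the end of the infections, the cells then grew in iCD3 induction medium, and per the methods the medium was changed after 7 days to N2B27 with 2iL, which holds LIF and inhibitors of GSK3 and MEK. The references were 2 MEF libraries, 1 library of OG2 mouse embryonic stem cells (mES) and 12 iPSC libraries, 6 per combination, from established iPSC in N2B27 with 2iL. The iPSC are labelled iPSC1 or iPSC2, here called the line. Every iPSC1 library is also labelled p5 or p6 and every iPSC2 library p2, which is read here as passage. A difference between the lines therefore cannot be told apart from one between p2 and the later passages. NanogWT iPSC1 held both p5 and p6 libraries, whereas all NanogBiD iPSC1 libraries were p5. NanogWT iPSC samples 1 (p5) and 1-2 (p6) share the number 1 in the labels and were counted as 2 samples. Averaging them as 1 changed no member's call. Each time-course sample is a bulk culture, so a lower level in fewer cells and a lower level per cell cannot be told apart. The labels do not say whether replicates came from separate cultures or embryos, so that p-values measure only the spread between these libraries.

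Values are FPKM, fragments scaled by gene length and library total. Differences are between mean log2(FPKM + 1) values, which understates changes of low genes, and a gene was called where limma gave an adjusted p below 0.05 and the difference was 1 or more in either direction. Relative depth, read from the step between low values, ran from 0.831 to 1.13 in 28 libraries of the gene table but from 1.90 to 3.25 in the other 6, which are NanogWT at D8, D10 and D12, so from D8 on depth and combination cannot be told apart. Ss18, whose sequence the fusion shares in part, was at 44.0 to 148 FPKM in all NanogBiD time-course libraries and at 24.7 to 40.9 FPKM in the NanogWT ones, and the groups did not overlap. The summed level of 8 fibroblast markers fell from 5598 and 6110 FPKM in MEF to 176 and 295 FPKM in NanogBiD and 431 and 480 FPKM in NanogWT at D7. At D12 it was 184 and 286 FPKM in NanogBiD but 1617 and 2092 FPKM in NanogWT. The summed level of 8 pluripotency markers at D12 was 1202 and 2171 FPKM in NanogBiD and 158 and 217 FPKM in NanogWT, with mES at 3563 FPKM. The part of these shifts in cell makeup in the results below was not tested.

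All members are annotated as protein-coding (GENCODE M21, GRCm38, the mm10 build of the files). Lifr (chr15:7090614-7197489, plus strand) and Osmr (chr15:6813577-6874969, minus strand) are neighbours, 216 kb apart, with 1 annotated gene and no protein-coding gene between them. Stat3 (chr11:100885098-100939540, minus strand), Jak1 (chr4:101152367-101265282, minus strand) and Pim1 (chr17:29490753-29496112, plus strand) overlap annotated genes on the opposite strand, and since the use of strand in counting is not stated, their values may hold reads of those genes. The others are Lif (chr11:4257557-4272514, plus strand), Il6st (chr13:112464070-112510086, plus strand), Socs3 (chr11:117966079-117970047, minus strand) and Socs2 (chr10:95385362-95417180, minus strand).

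STAT proteins bind palindromes of the form TTCNNNGAA, which reads the same on both strands. RefSeq start-site windows (GRCm38.p6) were matched for 8 of the 9 members and 26 of 35 other pathway genes. In the 250 bases before the start, 1 of 10 member windows held the motif, as did 2 of 38 windows of the other pathway genes, beside 7.02% of all 32851 windows. The member was Socs3, and the other 2 windows were both of Sbno2, a co-repressor gene that STAT3 induces. Socs3 and Sbno2 were both called higher in NanogBiD from D1 to D3. So were Lifr, Bcl3, Pim2, Tfcp2l1, Stat5a and Cntfr, whose windows held no motif, and Socs2, which had no matched window. A link between the motif and these rises was not tested. The stretches with the motif are written 5′ to 3′ on the gene's strand with the motif in capitals and are cut where an annotated exon begins. The Socs3 stretch is chr11:117969452-117969616, minus strand, with the motif starting 154 bases before the start. The Sbno2 stretches are chr10:80101188-80101437 and, inside an annotated exon of another transcript, chr10:80102710-80102738, both on the minus strand, with the motif starting 24 and 26 bases before the start.
Socs3: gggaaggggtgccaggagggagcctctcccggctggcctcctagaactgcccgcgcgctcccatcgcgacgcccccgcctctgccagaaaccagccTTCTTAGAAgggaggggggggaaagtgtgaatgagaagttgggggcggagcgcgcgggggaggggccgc
Sbno2, first window: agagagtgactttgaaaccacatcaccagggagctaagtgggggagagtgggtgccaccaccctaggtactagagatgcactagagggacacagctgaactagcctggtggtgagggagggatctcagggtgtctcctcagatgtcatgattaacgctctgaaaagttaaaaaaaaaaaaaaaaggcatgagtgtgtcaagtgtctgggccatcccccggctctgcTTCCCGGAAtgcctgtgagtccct
Sbno2, second window: gccgcgccccTTCGCAGAAgcggaagtgc

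Few members were called right after infection. Compared with MEF, the feedback inhibitor Socs3 fell in both combinations at D0, by 2.29 on the log2 scale in NanogBiD and 2.21 in NanogWT (limma adjusted p = 0.000643 and 0.00137), and Osmr fell by 1.58 in NanogWT (adjusted p = 0.000225). Socs3 was at 23.3 and 8.46 FPKM in the 2 MEF libraries, which differ from each other, and at 1.57 to 3.15 FPKM in the 4 libraries of D0. Osmr was at 29.6 and 19.7 FPKM in MEF, at 14.6 and 13.3 FPKM in NanogBiD and at 6.29 and 8.73 FPKM in NanogWT at D0. So 1 and 2 of the 9 members were called at D0 against MEF, beside 11.4% and 6.84% of all genes tested. Between the combinations at D0 and D1 none of the 9 was called, beside 0.760% and 1.33% of all genes, and at an unadjusted p under 0.05 there were 2668 and 2266 genes overall.

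**Figure D1:**
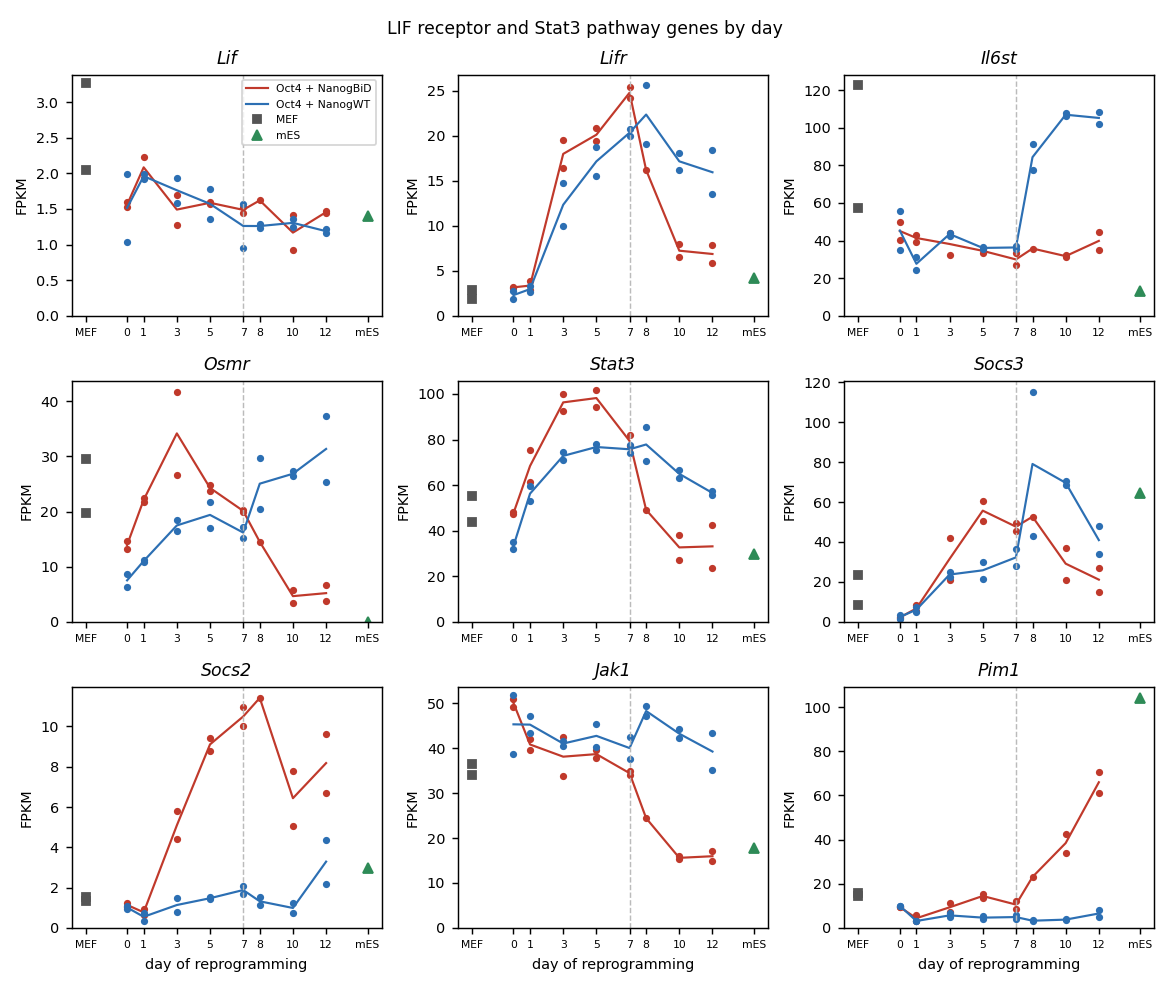
FPKM (y axis, linear from 0) of each member against the day of reprogramming, with a point for each library, lines through the group means, MEF as squares and mES as a triangle; the dashed line at D7 marks the medium change. Lifr and Socs3 climb in both combinations by D3. In NanogBiD, Osmr falls from D3 on and Stat3 from D5 on, and Lifr, Osmr, Stat3 and Jak1 all fall from D7 to D10. Pim1 climbs there to 61.2 and 70.7 FPKM at D12, and from D8 on Il6st climbs in NanogWT.

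Lifr, the LIF-binding subunit, rose between D1 and D3 in both combinations. Its level was 3.86 and 2.81 FPKM in NanogBiD and 3.26 and 2.63 FPKM in NanogWT at D1. By D3 it was 16.4 and 19.6 FPKM in NanogBiD and 14.7 and 9.94 FPKM in NanogWT. All 4 libraries of D3 lay above all 4 of D1, and the means rose 5.39-fold and 4.19-fold (log2 difference 2.14 ± 0.20 and 1.74 ± 0.20, SE, n = 2 per group; limma adjusted p = 5.47e-07 and 7.84e-06). Socs3 rose beside it, by 2.03 in NanogBiD and 1.82 in NanogWT (adjusted p = 0.00165 and 0.00464), and the NanogWT call was lost without replicate 1 (adjusted p = 0.0738) and without replicate 2 (adjusted p = 0.153). Its level reached 42.0 and 21.1 FPKM in NanogBiD and 24.9 and 22.4 FPKM in NanogWT at D3, from 4.92 to 8.21 FPKM at D1. Socs2, another inhibitor, best known for damping growth hormone signalling, rose in NanogBiD by 1.78 (adjusted p = 3.56e-05), whereas its difference in NanogWT was 0.46 (adjusted p = 0.268). In all, 3 of 9 members were called in NanogBiD and 2 of 9 in NanogWT from D1 to D3, beside 5.12% and 4.54% of all genes. These D1 to D3 contrasts were chosen after the values had been seen. With the compared groups fitted alone, none of the members was called in either.

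Several listed pathway genes rose in the same interval. Of 35 other genes of the pathway, 33 passed the filter on low values, and 6 rose in NanogBiD and 7 in NanogWT from D1 to D3, with none falling, beside 5.12% and 4.54% of all genes called. Called in both were Bcl3, an NF-kappaB cofactor, the kinase Pim2, the naive pluripotency factor Tfcp2l1, Stat5a and the receptor Cntfr. Bcl3 went from 3.82 and 5.07 FPKM to 22.2 and 33.2 FPKM in NanogBiD and from 4.94 and 4.96 FPKM to 16.3 and 16.4 FPKM in NanogWT. Sbno2 was called in NanogBiD (log2 difference 1.18, limma adjusted p = 0.00356), where it went from 19.5 and 28.7 FPKM to 48.3 and 62.1 FPKM. In NanogWT Sbno2 went from 20.7 and 21.0 FPKM to 40.2 and 41.6 FPKM without being called. The genes named here were picked after their values were seen.

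Stat3 itself was measured at 23.7 FPKM or more in every time-course library and was called between the combinations on no day up to D7. It was at 47.1 and 48.2 FPKM in NanogBiD and 31.7 and 34.8 FPKM in NanogWT at D0. At D5 it was at 94.5 and 102 FPKM in NanogBiD and 78.2 and 75.3 FPKM in NanogWT, above the MEF levels of 55.0 and 43.7 FPKM. Jak1 was at 33.8 to 51.8 FPKM in all 20 libraries of D0 to D7 and was called between the combinations on none of these days. Taken by day, its levels overlapped at D0 and D3. At D1, D5 and D7 both NanogBiD libraries lay below both NanogWT ones. At D7 they were at 33.9 and 35.0 FPKM against 37.7 and 42.4 FPKM. Lif was low everywhere, between 0.922 and 2.24 FPKM over the 31 libraries, 3.27 and 2.05 FPKM in MEF and 1.40 FPKM in mES, and it was called in none of the comparisons.

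Up to D7, Socs2 and Pim1 were the only members called between the combinations, Pim1 at D5 alone. Socs2 was at 5.78 and 4.39 FPKM in NanogBiD at D3, at 8.77 and 9.44 FPKM at D5 and at 10.98 and 10.01 FPKM at D7. In NanogWT it stayed between 0.803 and 2.08 FPKM over these days, so the groups did not overlap. The log2 differences were 1.52 ± 0.24, 2.03 ± 0.24 and 2.00 ± 0.24 (SE, n = 2 per group; limma adjusted p = 0.000271, 6.06e-06 and 4.09e-06). Pim1, a serine/threonine kinase that promotes survival, was at 15.2 and 13.6 FPKM in NanogBiD and 4.10 and 5.15 FPKM in NanogWT at D5, a difference of 1.46 (adjusted p = 0.000541). At D7 it was at 12.3 and 8.74 FPKM against 5.89 and 3.89 FPKM, a difference of 0.97 that passed the p-value (0.00848, adjusted, limma) but lay under the fold limit. Socs3 at D5 was at 50.7 and 60.7 FPKM in NanogBiD and 21.4 and 30.1 FPKM in NanogWT, without overlap, but its difference of 1.10 did not pass (adjusted p = 0.0714). The members called were 1 at D3, 2 at D5 and 1 at D7, beside 3.70%, 6.48% and 10.4% of all genes. The Socs2 call at D3 was lost when only the compared groups were fitted (adjusted p = 0.170, where no gene was called), and the Pim1 call at D5 was lost without replicate 1 (adjusted p = 0.0756).

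None of the receptors was called between the combinations up to D7. Even so, Osmr was higher in both NanogBiD libraries than in both NanogWT ones on each sampled day from D0 to D7, as was Stat3 from D0 to D5. Osmr came nearest, with a log2 difference of 0.94 at D1 and 0.90 at D3 that passed the p-value (0.0463 and 0.0279, adjusted, limma) but not the fold limit, and without replicate 1 it was called at D3 (1.29, adjusted p = 0.0437). At D7 Lifr was at 24.2 and 25.4 FPKM in NanogBiD and 19.9 and 20.7 FPKM in NanogWT, and its log2 difference was 0.27 with a 95% interval from -0.15 to 0.70. The differences at D7 of Osmr (0.30, interval -0.23 to 0.83), Il6st (-0.28, interval -0.68 to 0.12), Stat3 (0.07, interval -0.34 to 0.47) and Jak1 (-0.21, interval -0.50 to 0.08) did not pass either, and all 5 intervals stayed inside the fold limit.

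**Figure D2:**
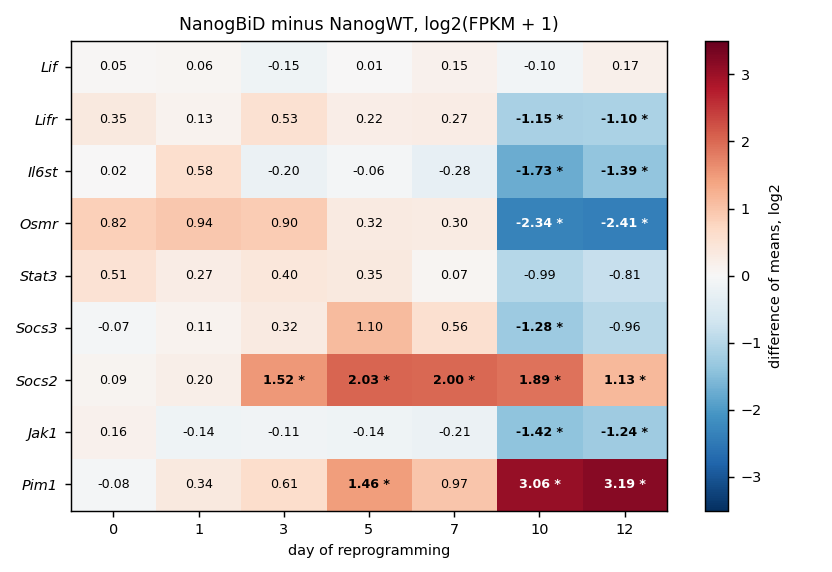
Difference of mean log2(FPKM + 1), NanogBiD minus NanogWT, for each member (rows) and day (columns), with red for higher and blue for lower in NanogBiD; bold values with a star were called. Socs2 is called from D3 on, Lifr and Osmr turn from red to blue between D7 and D10, and 7 of the 9 members are called at D10.

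More members were called between the combinations after D7, when the day, the medium and, in NanogWT, the depth had all changed. At D10, 7 of the 9 members were called between them, 5 lower and 2 higher in NanogBiD, and at D12 6 were called, 4 lower and 2 higher. The background was high: 27.8% of all genes were called at D10 and 23.4% at D12. The median difference over the members was -1.15 at D10 and -0.96 at D12, beside medians of 0.10 and 0.17 over all genes. The 5 members lower at D10 were Lifr, Il6st, Osmr, Jak1 and Socs3, and all but Socs3 were also called at D12. Socs2 and Pim1 were the 2 higher ones on both days.

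Osmr had the largest fall. In NanogBiD it was at 26.7 and 41.7 FPKM at D3, 24.8 and 23.8 FPKM at D5 and 20.4 and 19.9 FPKM at D7. Both libraries of D7 lay below both of D3, a difference that was not tested. Osmr was then at 14.5 FPKM at D8, 3.47 and 5.82 FPKM at D10 and 3.68 and 6.69 FPKM at D12. In NanogWT it went from 15.2 and 17.2 FPKM at D7 to 27.3 and 26.4 FPKM at D10 and 25.4 and 37.3 FPKM at D12, within or above the MEF range. At D12 the NanogWT mean was 6.05-fold the NanogBiD mean (log2 difference -2.41 ± 0.25, SE, n = 2 per group; limma adjusted p = 2.2e-07). In mES Osmr was listed at 0.

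Lifr fell in NanogBiD from its D7 peak to 16.2 FPKM at D8, 6.51 and 7.92 FPKM at D10 and 5.89 and 7.81 FPKM at D12, towards the 4.23 FPKM of mES. In NanogWT it stayed at 25.6 and 19.1 FPKM at D8, 16.2 and 18.1 FPKM at D10 and 13.5 and 18.4 FPKM at D12. From D10 on the combinations did not overlap (log2 difference -1.15 and -1.10 at D10 and D12; limma adjusted p = 8.78e-05 and 0.000159). Ordered by group mean, the highest Lifr levels in the gene table were NanogBiD at D7, NanogWT at D8 and NanogWT at D7, each overlapping the next in that order, and the lowest were MEF and both combinations at D0 and D1. The mES level thus lay between the D1 level and the D12 level of NanogBiD.

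Il6st, the shared signal-transducing subunit, moved in NanogWT rather than in NanogBiD. In NanogWT it was at 37.0 and 35.6 FPKM at D7 and at 91.4 and 77.4 FPKM at D8, a log2 difference of 1.19 ± 0.19 (SE, n = 2 per group; limma adjusted p = 0.000154), and at D10 and D12 its 4 libraries were at 102 to 109 FPKM, within the MEF range of 123 and 57.2 FPKM. In NanogBiD it was between 26.7 and 44.6 FPKM from D7 to D12. It was the 1 member called from D7 to D8 in NanogWT, beside 7.05% of all genes (a contrast added after the values were seen), and 5 of the 8 fibroblast markers were called higher in the same contrast. Their summed level there went from 431 and 480 FPKM to 1212 and 1225 FPKM. The part of the fibroblast markers and of depth in the Il6st rise was not tested. In mES Il6st was at 13.05 FPKM.

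Downstream of the receptors, Stat3 in NanogBiD was at 94.5 and 102 FPKM at D5 and lower, at 77.0 and 81.8 FPKM, at D7, a difference that was not tested. It fell further to 27.02 and 38.24 FPKM at D10 (log2 difference from D7 -1.28, limma adjusted p = 2.99e-05), a range that holds the mES level of 29.8 FPKM. In NanogWT it was at 66.6 and 63.2 FPKM at D10 and 55.8 and 57.3 FPKM at D12. The differences between the combinations, -0.99 at D10 and -0.81 at D12, passed the p-value (0.000216 and 0.00160, adjusted, limma) but lay under the fold limit. Jak1 fell in NanogBiD from 33.9 and 35.0 FPKM at D7 to 24.4 FPKM at D8 and 14.8 and 17.1 FPKM at D12, below its 35.1 and 43.4 FPKM in NanogWT at D12 and next to the 17.8 FPKM of mES (log2 difference at D12 -1.24 ± 0.14, SE, n = 2 per group; adjusted p = 4.82e-07).

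Socs3 was the most variable member. In NanogWT the 2 libraries of D8 were at 115 and 43.0 FPKM, and its level was 68.7 and 70.5 FPKM at D10 and 47.9 and 33.9 FPKM at D12. In NanogBiD it was at 52.6 FPKM at D8, 21.1 and 37.1 FPKM at D10 and 15.1 and 27.1 FPKM at D12. The difference was called at D10 (-1.28, limma adjusted p = 0.0110) and missed at D12 (-0.96, adjusted p = 0.0548). Without replicate 1 the D10 call was lost (adjusted p = 0.237). At D12 Socs3 was called without replicate 2 (-1.60, adjusted p = 0.0334), with rescaling to a common total (-1.03, adjusted p = 0.0465) and with quantile normalization (-1.06, adjusted p = 0.0355). Unlike the receptors, Socs3 was high in mES, at 64.7 FPKM.

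Pim1 rose in NanogBiD after D7, while Lifr and Osmr fell. In NanogBiD it was at 23.1 FPKM at D8, 42.7 and 34.1 FPKM at D10 and 70.7 and 61.2 FPKM at D12, nearing the 104 FPKM of mES. In NanogWT it stayed between 2.92 and 8.25 FPKM from D8 to D12, below the 15.97 and 14.44 FPKM of MEF. The D12 means differed 10.1-fold (log2 difference 3.19 ± 0.26, SE, n = 2 per group; limma adjusted p = 8.71e-09). In the order of group means, mES was highest, NanogBiD at D12, D10 and D8 followed, and these did not overlap with each other. Socs2 was at 6.72 and 9.64 FPKM in NanogBiD at D12 and at 2.201 and 4.374 FPKM in NanogWT, where it too had risen since D0 by 1.05 (adjusted p = 0.00190), a rise that was 0.63 and not called with quantile normalization (adjusted p = 0.0679). The Socs2 difference at D12, 1.13, was 0.99 without replicate 1 and then lay under the fold limit.

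Over the whole course, 5 of the 9 members changed from D0 to D12 in each combination, beside 34.7% of all genes in NanogBiD and 16.2% in NanogWT. In NanogBiD Socs3, Pim1 and Socs2 rose, and Osmr and Jak1 fell. Socs3 there rose from a D0 level called below MEF, and its 15.1 and 27.1 FPKM at D12 overlapped the 23.3 and 8.46 FPKM of MEF. In NanogWT all 5 rose, namely Lifr, Il6st, Osmr, Socs3 and Socs2. The change differed between the combinations for 7 of 9 members (the interaction, beside 23.9% of all genes). It was lower in NanogBiD for Lifr, Il6st, Osmr, Stat3 and Jak1 and higher for Socs2 and Pim1. The interaction includes the D0 differences, none of them called. These were 0.35 for Lifr, 0.02 for Il6st, 0.82 for Osmr, 0.51 for Stat3, 0.16 for Jak1, 0.09 for Socs2 and -0.08 for Pim1. At D12 itself Stat3 (-0.81) was not called. The interaction was -3.23 ± 0.36 for Osmr and 3.27 ± 0.37 for Pim1 on the log2 scale (SE; limma adjusted p = 1.27e-06 and 1.63e-06). The interaction counted 4 members without replicate 1, when Il6st, Stat3 and Socs2 missed. Without replicate 1 the Osmr fall in NanogBiD (-0.89) and the Il6st rise in NanogWT (0.95) lay under the fold limit, and without replicate 2 the Socs2 rise in NanogWT did not pass (adjusted p = 0.0916). From D7 to D10 alone, 5 members were called in NanogBiD (Lifr, Osmr, Stat3 and Jak1 lower, Pim1 higher) beside 15.7% of all genes, within libraries of like depth, and 1 in NanogWT (Il6st higher) beside 10.3%.

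Lifr and Osmr can be compared within a library, since a ratio of 2 genes does not move with a scaling common to all genes. The log2 ratio of Lifr to Osmr (0.1 added to both FPKM) was -3.35 ± 0.05 in MEF (SD, n = 2) and 5.44 in the mES library, where Osmr is listed at 0 and the value rests on the added 0.1. It climbed in both combinations to 0.30 ± 0.08 in NanogBiD and 0.33 ± 0.08 in NanogWT at D7 (SD, n = 2). It then went to 0.66 ± 0.32 and 0.44 ± 0.31 in NanogBiD and to -0.65 ± 0.15 and -0.96 ± 0.08 in NanogWT at D10 and D12. Over D5 to D12 the ratio was higher in NanogBiD by 0.58 on average (exact two-sided permutation test within day, 3888 arrangements, p = 0.0159). With same-numbered libraries paired, the difference of 0.62 did not pass (exact sign-flip permutation p = 0.0547). Without replicate 1 or 2 it was 0.56 and 0.66 (exact p = 0.250 for both), where the smallest p these designs allow is 0.125 and 0.0625. At D5 and D7 alone the difference was -0.06 (exact p = 0.278, where 0.0556 is the smallest possible), and at D8, D10 and D12 alone it was 1.01 (exact p = 0.00926, the smallest possible), the days on which depth differs too. Both genes fell in NanogBiD, so the ratio there moved less than either gene.

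**Figure D3:**
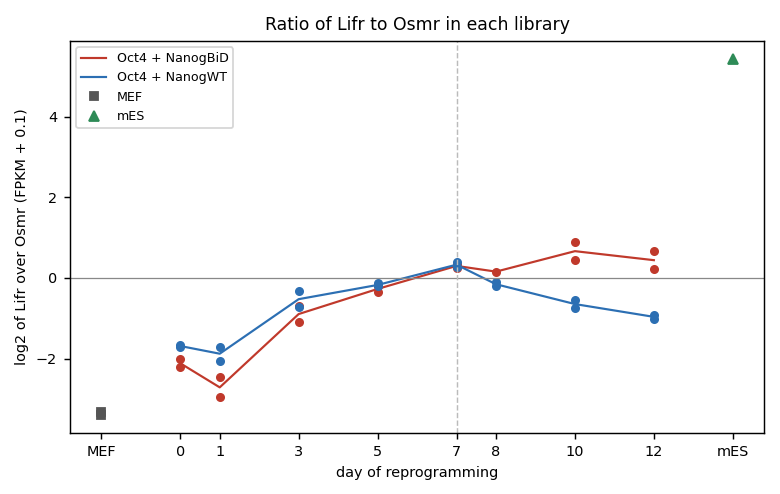
Log2 of Lifr over Osmr, each as FPKM + 0.1 (y axis), against the day of reprogramming, with a point for each library, lines through group means, MEF as squares and mES as a triangle. NanogBiD lies lower at D0 and D1, the lines meet at D7, where the means are 0.30 and 0.33, and they part after it, while mES lies above at 5.44.

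Other genes of the pathway split at D12 as well, with 12 of the 33 tested called, 7 higher and 5 lower in NanogBiD, beside the 23.4% of all genes. Among ligands and receptors, the ligand gene Osm was at 2.71 and 3.04 FPKM in NanogBiD and 0.173 and 0.395 FPKM in NanogWT (log2 difference 1.60, limma adjusted p = 1.01e-07), and Il11ra1 was lower (-1.51). Among kinases and STATs, Tyk2 was higher (1.15) and Stat5a lower (-1.47). Stat5a had been at 13.7 to 16.5 FPKM in all 4 libraries of D7. The 1 called gene among the 9 other inhibitors was Ptpn6, which encodes the phosphatase SHP-1, at 9.32 and 17.1 FPKM in NanogBiD against 0.439 and 0.856 FPKM in NanogWT (3.06, adjusted p = 2.10e-08) and at 14.0 FPKM in mES.

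Reported STAT3 targets and Pim kinases moved both ways. Of 11 listed, 4 were higher and 3 lower in NanogBiD at D12. Higher were the pluripotency factors Gbx2 (1.63), Tfcp2l1 (1.38) and Klf5 (1.35) and the kinase Pim3 (1.57). Lower were Myc (-2.22), the AP-1 gene Junb (-1.97) and Sbno2 (-1.46). Myc was at 1.40 and 2.29 FPKM in NanogBiD and at 10.4 and 13.9 FPKM in NanogWT at D12, with mES at 1.75 FPKM. Tfcp2l1 was at 37.1 and 42.2 FPKM in NanogBiD, 11.6 and 18.4 FPKM in NanogWT and 107 FPKM in mES. Sbno2 and Socs3, whose start-site windows hold the motif shown above, stood apart in mES, where Sbno2 was at 10.8 FPKM and Socs3 at 64.7 FPKM. At D5, Klf4, Gbx2, Pim2, Pim3 and Bcl3 of this list were called higher in NanogBiD and none lower, beside 6.48% of all genes, and of these 5 only Gbx2 and Pim3 were also called higher at D12. Pim2 at D5 was at 221 and 226 FPKM in NanogBiD and 74.4 and 101 FPKM in NanogWT, beside 1.45 and 1.72 FPKM in MEF and 7.52 FPKM in mES.

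Across the 31 time-course libraries, which share days and depth, Pearson r between members (log2 levels, over libraries, as a description) was highest for Lifr and Socs3 (0.90) and for Osmr and Stat3 (0.86), and lowest for Jak1 and Pim1 (-0.86). The genes most like Lifr were Myo16 (r = 0.98), Gna14 (0.97) and Ephb1 (0.97). Myo16 was at 9.22 and 10.5 FPKM in NanogBiD at D7 and 1.26 and 2.57 FPKM at D12, and at 7.17 and 8.22 FPKM in NanogWT at D12. Among those most like Socs3 were Bcl3 (0.98) and Zbtb42 (0.94). Most like Stat3 were Psd3 (0.95), Tut7 (0.94) and Zcchc6 (0.94), and Tut7 and Zcchc6 are 2 symbols of 1 gene that appear as separate entries.

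In established iPSC no member was called between the combinations. This was read from the transcript-level table, summed by symbol and normalized separately, with the iPSC line (iPSC1 or iPSC2) as covariate. The lines also differ in passage, and passage within iPSC1 was not a covariate. Of the 8 members tested, none was called between NanogBiD and NanogWT iPSC, beside 0.00% of all genes (0 of 12456 called by limma, 201 at an unadjusted p under 0.05). The 95% intervals of the differences ran from -0.27 to 0.18 for Lifr, -0.18 to 0.24 for Il6st, -0.20 to 0.36 for Stat3 and -0.49 to 0.28 for Pim1 on the log2 scale. Osmr did not pass the filter on low values among the iPSC.

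Against MEF, 8 of the 9 members differed in the 12 iPSC libraries, beside 40.5% of all genes, and 4 were higher and 4 lower. The fit against MEF had neither line nor combination as a term. Pim1 was at 53.4 to 132 FPKM in iPSC (median 70.7), at 13.2 and 11.9 FPKM in MEF and at 86.5 FPKM in mES. Lifr was at 4.55 to 7.57 FPKM (median 6.09), at 2.92 and 1.88 FPKM in MEF and at 4.32 FPKM in mES. Socs3 and Socs2 were the other 2 higher members (log2 difference 1.24 and 1.04; limma adjusted p = 0.000248 and 0.00680). Il6st was at 14.0 to 18.9 FPKM (median 16.9) in iPSC and at 106 and 52.0 FPKM in MEF, and Stat3 was at 13.7 to 26.8 FPKM (median 22.8) in iPSC and at 55.6 and 46.5 FPKM in MEF. Jak1 was lower too (-1.28, adjusted p = 4.75e-05). Without MEF replicate 2, 5 members were called, as Lifr, Socs2 and Socs3 dropped out.

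Osmr was at 0 to 0.636 FPKM in 11 of the 12 iPSC libraries and at 33.0 and 23.1 FPKM in MEF (log2 difference -4.52 ± 0.40, SE; limma adjusted p = 9.99e-08). The exception, NanogBiD iPSC sample 9 of line iPSC1, was at 3.18 FPKM. The summed fibroblast markers in that library were at 1333 FPKM, the highest of the 12, and its pluripotency markers at 1861 FPKM, the lowest. The next highest Osmr level, 0.636 FPKM in NanogWT iPSC sample 3, was in the library with the next highest fibroblast sum, 422 FPKM. In the other 10 libraries that sum was 2.496 to 146 FPKM. Across all 12, every p5 library was at 40.7 FPKM or more and every p2 or p6 library at 29.8 FPKM or less. The part of fibroblast RNA or of passage in the Osmr level was not tested. Without sample 9 the same count of 8 members was called against MEF and the Osmr difference was -4.68.

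**Figure D4:**
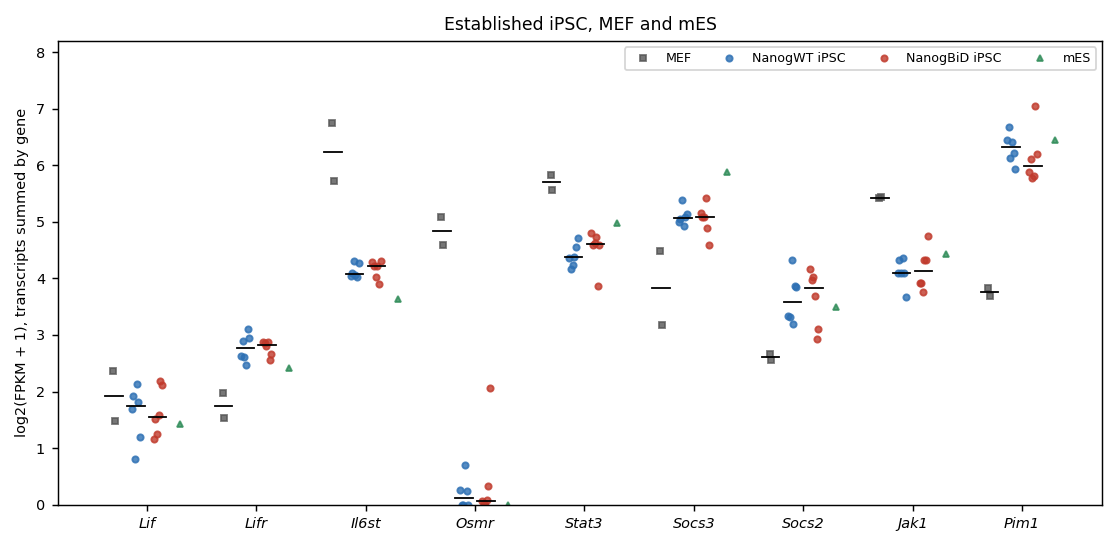
Log2(FPKM + 1) of each member in the transcript table, summed by gene (y axis), with a point for each MEF, NanogWT iPSC, NanogBiD iPSC and mES library and a bar at each group's median. The iPSC of both combinations overlap for all 9 members, and NanogBiD iPSC sample 9, with Osmr at 3.18 FPKM, is the highest red point over Osmr.

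The 2 tables differ in the level of Socs2. For the 3 libraries present in both, the transcript sum of Socs2 was 3.44 to 3.68 times its value in the gene table (10.3 and 2.96 FPKM in mES), whereas for the other 8 members the ratio was 0.821 to 1.26 where it could be formed. The transcript table lists 15 Socs2 transcripts, the most of any member, and Il6st and Pim1 have 1 each. Socs2 levels in iPSC are therefore not compared with its time-course levels.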

How the data were processed

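Per the labels and the study's methods, mRNA libraries of 46 samples were sequenced, and the authors trimmed reads with Trim Galore 0.6.4, aligned them to mm10 with HISAT2 2.2.1 and quantified them with StringTie 2.2.1. Both tables deposited by the authors hold FPKM, in a gene table (37108 genes, 34 libraries) and a transcript table (106520 transcripts, 15 libraries, summed here to 35976 symbols). The annotation and use of strand are not given in the sources used here. Absolute depth is unknown, so no counting interval is given. Relative depth came from the most frequent ratio of low values between libraries.

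Levels were analysed as log2(FPKM + 1) for genes that reached 1 FPKM in 2 or more fitted libraries (16842 in the time course). limma 3.58.1 in R 4.3.3 fitted one mean per combination and day with a shared spread and an intensity trend, and p-values were two-sided and Benjamini-Hochberg adjusted over all tested genes. MEF were added for D0 against MEF, and the iPSC fit had the line as covariate. D8 of NanogBiD has 1 library and no call. In data simulated with normal noise, 200 genes among 16668 were changed by 2 on the log2 scale, all with a mean log2(FPKM + 1) above 2. The D12 contrast recovered 194, with 5 other genes called. Recovery of changes near the fold limit, or in low genes, was not simulated. Python 3.11.15 was used for the ratio test, motif search and figures. Replicate numbers are shared by the combinations, but same-numbered deviations correlated at -0.06 to 0.39 over the 7 days, so the numbers were not taken as pairs.

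The members and lists were chosen with earlier results of these data known. Named were all members, up to 5 genes per other list called at D12 with the largest difference, and the 3 genes correlating best with each of Lifr, Stat3 and Socs3. One gene that this rule names is not reported here. Exceptions are stated, and Tfcp2l1 and Klf5 were named beyond the 5 after their values were seen. The contrasts of D1 with D3 and, in NanogWT, of D7 with D8, and the iPSC fits without sample 9, were added after the data were seen. The tables were normalized separately, so each test stays within one table. Alternatives were another pseudocount, no filter, rescaling to a common total, quantile normalization, no fold limit, the compared groups alone, a replicate block and leaving out libraries.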

Additional observations from a re-analysis of the deposited data

Results flagged for a closer look

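The change from D0 to D12 differed between the combinations, by the test of the interaction, for 7 of the 9 members: Lifr (-1.46), Il6st (-1.41), Osmr (-3.23), Stat3 (-1.32) and Jak1 (-1.40) changed lower in NanogBiD, and Socs2 (1.04) and Pim1 (3.27) higher, all as log2 differences, NanogBiD minus NanogWT. The Socs2 value is the least settled of these, since its adjusted p was above 0.05 with a pseudocount of 0.1 (0.0826), with rescaling to a common total (0.0732), with the compared groups alone (0.107) and without either replicate (0.108 and 0.0828), and its size was 0.98 with quantile normalization.

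Among 18 groups of 6 iPSC libraries (9 members, 2 combinations), 4 held a library far from the others, judged by its gap as a share of the range in FPKM. The rule is set to flag about 1 group in 20 by chance. The same libraries recur across the members and Osmr lies near 0, so an excess over chance was not shown. In NanogBiD iPSC, sample 9 stood apart for Osmr (3.18 FPKM, next 0.260 FPKM), a gap of 0.918 of the range. Sample 8 of the same line stood apart for Stat3 (13.7 FPKM, next 23.0 FPKM, gap 0.712 of the range) and for Pim1 (132 FPKM, next 72.2 FPKM, gap 0.761 of the range). In NanogWT iPSC, sample 3 stood apart for Osmr (0.636 FPKM, next 0.205 FPKM, gap 0.678 of the range). All of these libraries are labelled p5.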

How the results depend on the processing

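Of 1486 member differences recomputed under the alternatives, 1418 stayed on their side of the threshold (uncalled values near 0 could change sign), 30 lost and 38 gained a call, and none that was called changed sign. With no fold limit, the members called were 1 at D1, 2 at D3, 2 at D7, and 5 and 4 at D0 against MEF in NanogBiD and NanogWT, and the other pathway genes called were 8 at D7 and 22 at D12 (3 and 12 with the limit). With only the compared groups, which leaves few libraries to estimate the spread, they were 0 at D3, 3 in NanogWT from D0 to D12, 2 in NanogWT from D7 to D10, and 0 from D1 to D3 in both. At D7 they were 2 with a pseudocount of 0.1 or rescaling to a common total, and in NanogWT from D7 to D10 2 with that rescaling and 2 with the replicate block, where Socs3 was added (adjusted p = 0.0457); the block moved no other member's call. Leaving out a replicate gave 1 to 2 at D3, 1 to 2 at D5, 1 to 1 in NanogWT from D1 to D3, 4 to 6 for the interaction, 1 to 2 in NanogBiD at D0 against MEF and 5 to 8 for iPSC against MEF. Quantile normalization moved the median of all genes by -0.36 in NanogBiD and -0.24 in NanogWT from D0 to D12, and Socs3 was then called at D12 (-1.06, adjusted p = 0.0355). Stat3 at D10 passed the fold limit with a pseudocount of 0.1 (-1.01), rescaling (-1.09) and quantile normalization (-1.04).

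The log2 ratio of Lifr to Osmr, 0.58 over D5 to D12, was -0.0649 at D5 and D7 alone (exact p = 0.278). With same-numbered libraries paired (replicate block) it was 0.62 (exact sign-flip permutation p = 0.0547), and without a replicate 0.56 to 0.66 (exact p = 0.250 for both). With 2 libraries per group and unknown absolute depth, differences of low genes such as Lif are the least certain. The causes were not tested.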
